A study of Aspergillus niger with 6 samples.

Results

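Cytochrome P450 genes of the filamentous fungus Aspergillus niger were compared between a strain that lacks rpnR (ΔrpnR) and its control strain MA234.1. A gene was taken as a member when its annotated domains included p450 and its KEGG pathways did not include steroid biosynthesis, which left 139 of the 11910 genes in the deposited table. Of these, 31 lie inside a cluster of the table's secondary metabolism column and 108 lie outside. The labels give 3 libraries of ΔrpnR and 3 of MA234.1, although the design text speaks of duplicates. Conidia of both strains were grown for 16 h at 30 °C in 300 ml of transformation medium with 1% glucose, and the mycelium was then kept for 4 h in 150 ml of minimal medium with 25 mM xylose. The series presents rpnR as a predicted transcription factor gene under FlbA, with a part in protein secretion and stress resistance. How the deletion was made, and whether ΔrpnR is more than 1 clone, is not given in the sources used here.

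Cytochromes P450 are haem enzymes that use molecular oxygen and electrons from NADPH to hydroxylate, epoxidise or otherwise oxidise small molecules. In most fungi the electrons come from a separate NADPH-cytochrome P450 reductase, and most of the enzymes are held in the membrane of the endoplasmic reticulum by a helix near the N-terminus. Filamentous fungi carry large P450 families. Some members decorate the products of polyketide and peptide synthases encoded in the same gene cluster, and others break down plant compounds, fatty acids and foreign chemicals.

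The table holds 1 value per gene and strain, read as FPKM (fragments scaled by transcript length and mapped fragments), and 1 q-value per gene from the authors' comparison. No error, replicate number or depth can be attached to any value below, and neither strain's label could be checked through rpnR, which is not analysed here. Log2 ratios are of ΔrpnR over MA234.1 on the log2(FPKM + 1) scale, which understates changes of low genes. A gene is called when its q is under 0.05 in the authors' deposited table. Genes with a q of 1 are taken as not tested by the authors. In these bulk cultures, fewer hyphae that express a gene and less of its RNA in each hypha cannot be told apart. P450 genes with near-identical copies could share reads, and this could not be checked without sequences.

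Many P450 genes were silent, here meaning under 1 FPKM in both strains. Of the 139 members, 67 (48.2%) were silent, against 21.3% of all 11910 genes. Inside clusters 19 of 31 members (61.3%) were under this limit, and outside clusters 48 of 108 (44.4%). The corresponding shares were 38.5% of the 676 other cluster genes and 20.0% of the 11095 other genes outside clusters. These shares describe genes of 1 culture condition, and no test was made between them. The order of inside and outside depends on the limit, since under 10 FPKM in both strains lay 67.7% of the members inside clusters and 71.3% of those outside. Exactly 15 members were listed at 0 in both strains, 3 inside clusters and 12 outside.

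**Figure D1:**
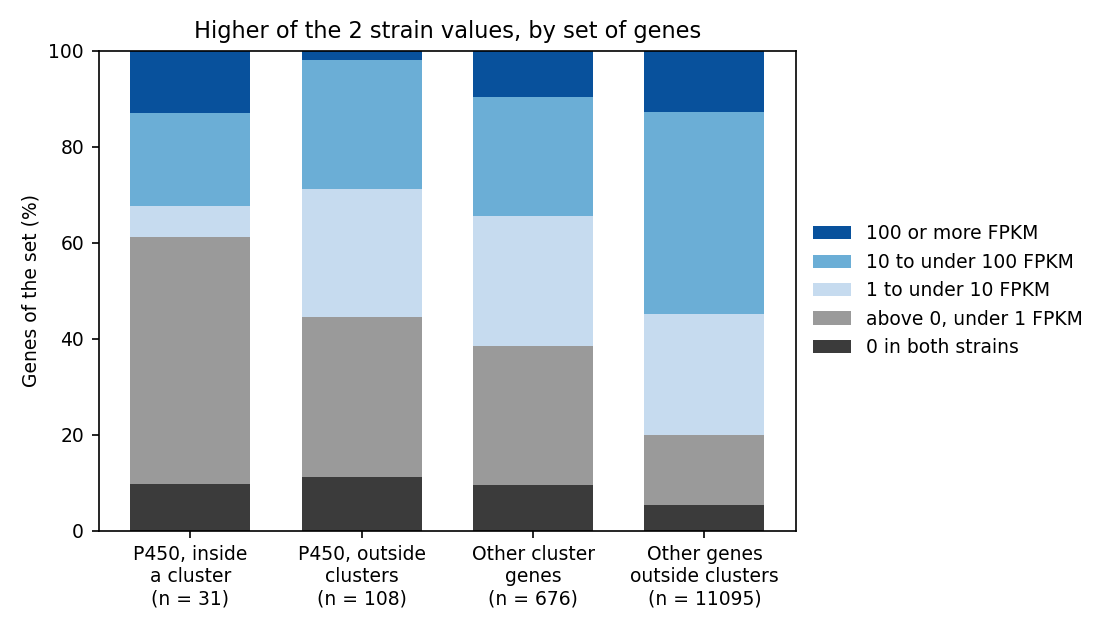
Stacked bars give the share of genes (%, y axis) in 5 bins of the higher of the ΔrpnR and MA234.1 values, for P450 genes inside clusters (n = 31), P450 genes outside clusters (n = 108), other cluster genes (n = 676) and other genes outside clusters (n = 11095). The grey and black parts, genes under 1 FPKM in both strains, make up 61.3% and 44.4% of the P450 bars and 38.5% and 20.0% of the others.

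Most members that were on in 1 strain were on in both, as was so for the genes at large. In ΔrpnR 51.1% of the members lay under 1 FPKM, in MA234.1 49.6% and in both strains 48.2%. Over all genes these shares were 23.5%, 23.7% and 21.3%. Of the 72 members that reached 1 FPKM somewhere, 66 did so in both strains, counted as 12 inside and 54 outside clusters. In ΔrpnR alone 1155563 and 1183607 reached the limit. The level of 1155563 was 1.29 FPKM in ΔrpnR and 0.595 FPKM in MA234.1, and that of 1183607 was 1.10 FPKM in ΔrpnR and 0.870 FPKM in MA234.1. In MA234.1 alone 4 members did: 1100804, 1154545, 1160673 and 48279. Of these 6, 1154545 had 0.446 FPKM in ΔrpnR and 19.9 FPKM in MA234.1, and the other 5 stayed under 1.5 FPKM in each strain. The 67 silent members are the same genes that the authors did not test. Their highest value was 0.844 FPKM in ΔrpnR and 0.929 FPKM in MA234.1.

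A few genes carried most of the P450 transcript. The members summed to 2962 FPKM in ΔrpnR and 2146 FPKM in MA234.1, which is 0.340% of the summed FPKM of all genes in ΔrpnR and 0.259% in MA234.1. The cluster members summed to 1871 FPKM in ΔrpnR and 1175 FPKM in MA234.1, and the members outside clusters to 1091 FPKM in ΔrpnR and 971 FPKM in MA234.1. The most abundant member was 1101614 of cluster 15, whose product joins a P450 domain to its own reductase domains. It held 28.2% of the P450 sum in ΔrpnR and 22.8% in MA234.1. The 8 highest members of each strain held 67.8% in ΔrpnR and 65.9% in MA234.1. Without 1101614 and 1227492, the genes with the largest differences in FPKM, the sums were 1765 FPKM in ΔrpnR and 1632 FPKM in MA234.1. Most of the net difference in the sums thus lay in these 2 genes. The next largest differences were the falls of 1116467 and 1158978. With these left out as well, the sums were 1378 FPKM in ΔrpnR and 1139 FPKM in MA234.1. At the level of single genes the family is low: the median member was at 0.829 FPKM in ΔrpnR and 1.03 FPKM in MA234.1, against 9.86 FPKM in ΔrpnR and 10.3 FPKM in MA234.1 over all genes.

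Between the strains, 5 members were called higher and 2 lower in ΔrpnR in the authors' deposited table, among the 72 members tested. These 7 are 9.72% of the tested members, against a background of 6.54% of all 9234 tested genes (3.29% higher and 3.25% lower), so the share lies near the background. Values in ΔrpnR lay above MA234.1 in 48 members (66.7%) and below in 24. Over all tested genes 51.3% lay above. The median log2 ratio was 0.20 among the tested members and 0.02 among all tested genes. A similar lean was seen among the other tested cluster genes labelled as decorating, of which 67.5% lay above, with a median of 0.22. Most tested members lie outside clusters, however. Of those 60 members, 41 (68.3%) lay above, with a median of 0.18. Among the other tested genes outside clusters, 50.7% lay above, with a median of 0.008. No test was made between these sets. The members that reached the test did so through their level in either strain, so these figures describe them and not the whole family. Most tested members differed little: 46 of 72 (63.9%) lay within 0.5 on the log2 scale, as did 66.8% of all tested genes.

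**Figure D2:**
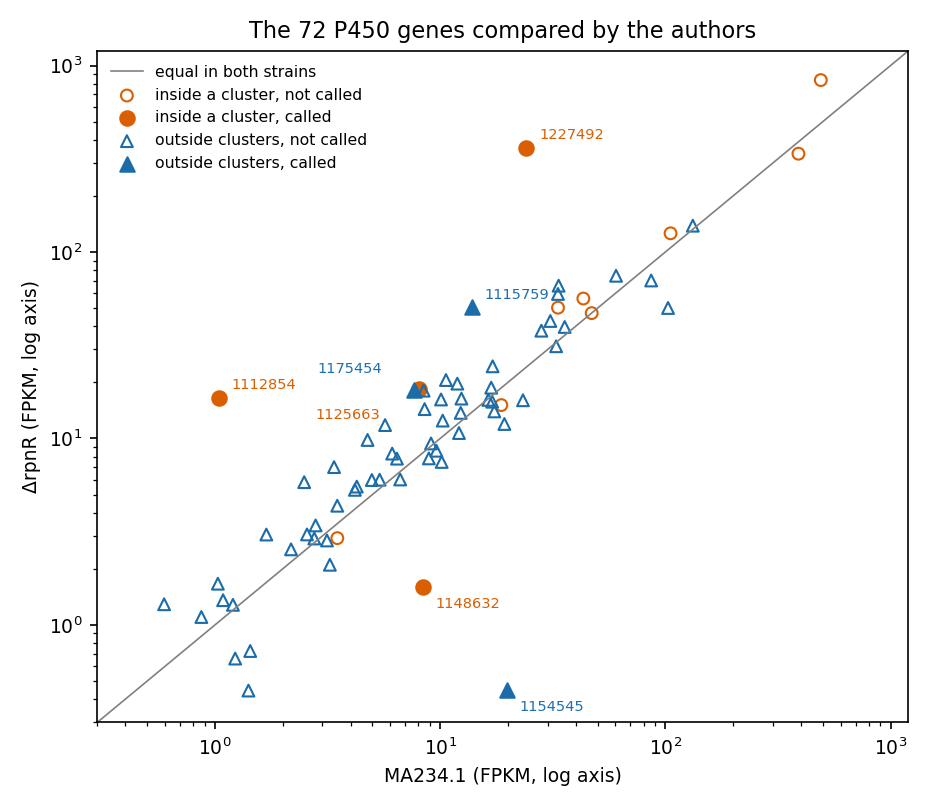
Each point is 1 of the 72 tested P450 genes, with its level in ΔrpnR (y axis, FPKM, log axis) against its level in MA234.1 (x axis, FPKM, log axis); circles are inside clusters, triangles outside, filled symbols are called. The 7 filled points are 5 above and 2 below the line of equal levels, and most open points lie close to it.

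Inside clusters, 12 of 31 members were tested, of which 3 were called higher and 1 lower in the authors' deposited table (33.3%). Outside clusters, 60 of 108 were tested, with 2 called higher and 1 lower (5%). The share over all tested genes was 6.54% (3.29% higher and 3.25% lower), so the share outside clusters lies near it. Of the 407 other tested cluster genes, 49 (12.04%) were called. By the flag of the authors' deposited table, which also asks for a fold of 2 and 10 FPKM in 1 strain, 6 of the 72 tested members (8.33%) were called, against 5.46% of all tested genes. At a q under 0.01 the table calls 4 of the 72 (5.56%), against 2.59% of all tested genes. The median log2 ratio was 0.31 inside and 0.18 outside. The share with the higher value in ΔrpnR had the opposite order, with 7 of 12 (58.3%) inside and 41 of 60 (68.3%) outside. The difference between these groups was not tested, and the count inside rests on 4 genes from 4 clusters. All 31 cluster members carry the table's label of a decorating gene, and they are spread over 23 of its 79 clusters.

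**Figure D3:**
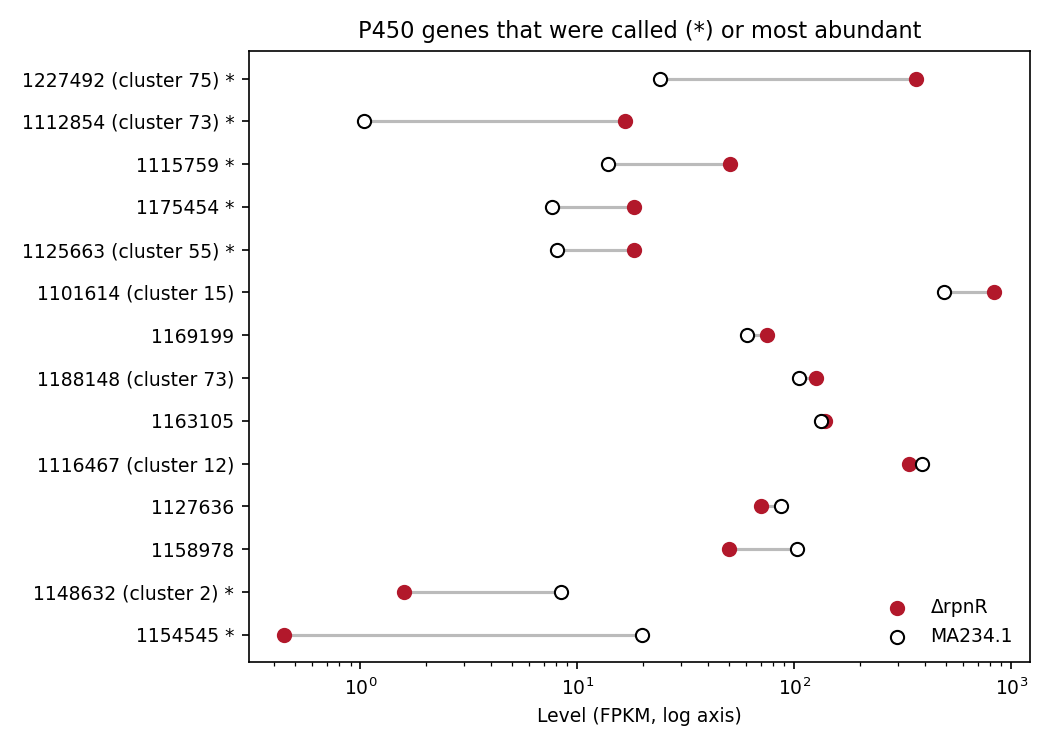
Levels in ΔrpnR (filled) and MA234.1 (open) in FPKM on a log axis, 1 value per strain, for the 7 called P450 genes (asterisk) and the 8 most abundant ones, ordered by log2 ratio; 1227492 belongs to both sets. The called genes span wide gaps, from 0.446 FPKM in ΔrpnR and 19.9 FPKM in MA234.1 for 1154545 to 362 FPKM in ΔrpnR and 24.2 FPKM in MA234.1 for 1227492.

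The largest rise was that of 1227492 in cluster 75, at 362 FPKM in ΔrpnR and 24.2 FPKM in MA234.1. The log2 ratio was 3.85, with a q of 0.0027 in the authors' deposited table. It ranks 2 among the rises of all 9234 tested genes. Its cluster is built around a hybrid polyketide and peptide synthase, 1188722, the enzyme that assembles the carbon skeleton. This synthase was at 98.3 FPKM in ΔrpnR and 7.93 FPKM in MA234.1. A dioxygenase of the 2-oxoglutarate type (1179775) was at 991 FPKM in ΔrpnR and 77.7 FPKM in MA234.1, and a zinc-type alcohol dehydrogenase domain gene (1179776) at 923 FPKM in ΔrpnR and 92.8 FPKM in MA234.1. All 3 were called higher in the authors' deposited table with a q of 0.0027. Calls covered part of the cluster. Of its 14 other tested genes, 4 were called higher and 1 lower in the authors' deposited table. The share called was 6.54% over all tested genes and 12.04% over all other tested cluster genes. The median log2 ratio of the 14 genes was 0.39. No other gene of the cluster exceeded the P450 in absolute log2 ratio. The gene called lower, 1168731, named after its values were seen, combines monooxygenase domains with a ribosomal protein domain and was at 110 FPKM in ΔrpnR and 364 FPKM in MA234.1.

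Cluster 73 holds 4 P450 genes, the most of any cluster, and they did not move together. The gene 1112854 was at 16.6 FPKM in ΔrpnR and 1.04 FPKM in MA234.1, a log2 ratio of 3.11, with a q of 0.00966 in the authors' deposited table. Its fold of 16.0 rests on a control value close to the limit of 1 FPKM, and with a pseudocount of 0.1 the log2 ratio was 3.87. The other 3 were more abundant and not called. The gene 1112865 was at 47.0 FPKM in ΔrpnR and 47.1 FPKM in MA234.1. Levels of 1128516 were 56.3 FPKM in ΔrpnR and 43.2 FPKM in MA234.1, and those of 1188148 were 126 FPKM in ΔrpnR and 105 FPKM in MA234.1. The log2 ratios of these 3 genes reached at most 0.37. The polyketide synthase of the cluster (1168194) was at 6.67 FPKM in ΔrpnR and 0.403 FPKM in MA234.1. A methyltransferase domain gene (1147456) was at 156 FPKM in ΔrpnR and 36.4 FPKM in MA234.1. Both were called higher in the authors' deposited table, each with a q of 0.0027. A serine hydrolase domain gene (1147459) had a log2 ratio of 3.11, at 35.8 FPKM in ΔrpnR and 3.26 FPKM in MA234.1, and was not called, with a q of 0.316 in the authors' deposited table. Among the 11 other tested genes of this cluster 3 were called higher, none lower, and the median log2 ratio was 0.82. Calls made up 6.54% of all tested genes and 12.04% of the other tested cluster genes.

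In cluster 55 the P450 gene 1125663, which also has a DUF3237 domain, was at 18.3 FPKM in ΔrpnR and 8.09 FPKM in MA234.1. Its log2 ratio was 1.09 and its q of 0.0466 in the authors' deposited table lies just under the threshold. The cluster's polyketide synthase (1125648) was not called and lay the other way, at 1.84 FPKM in ΔrpnR and 3.19 FPKM in MA234.1. A flavin monooxygenase domain gene (1159496) was called higher in the authors' deposited table, at 47.5 FPKM in ΔrpnR and 17.3 FPKM in MA234.1, as was a BTB domain gene (1093251) at 29.9 FPKM in ΔrpnR and 10.1 FPKM in MA234.1. An acetyltransferase domain gene (1186665) was at 18.4 FPKM in ΔrpnR and 7.71 FPKM in MA234.1 and not called. Of the 11 other tested genes, 2 were called, both higher, against 6.54% of all tested genes and 12.04% of the other tested cluster genes. With so few genes this count cannot be set apart from the share of cluster genes, and no test was made.

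The called fall inside a cluster was that of 1148632 in cluster 2, at 1.59 FPKM in ΔrpnR and 8.40 FPKM in MA234.1. Its level was 5.28-fold lower in ΔrpnR, with a log2 ratio of -1.86 and a q of 0.0275 in the authors' deposited table. It missed the authors' own flag, as it did not reach 10 FPKM in either strain. The other P450 genes of this cluster were silent: 1079697 was at 0.0619 FPKM in ΔrpnR and 0.0498 FPKM in MA234.1, and 1080155 at 0.192 FPKM in ΔrpnR and 0.0540 FPKM in MA234.1. Calls made up 6.54% of all tested genes (3.25% lower and 3.29% higher) and 12.04% of the other tested cluster genes. Of the 18 other tested genes of cluster 2, 6 were called lower and 1 higher in the authors' deposited table. Among those that fell were an aminotransferase of the branched-chain type (1148631), at 5.10 FPKM in ΔrpnR and 40.2 FPKM in MA234.1, and an oxidoreductase of the inositol dehydrogenase type (50199), at 1.60 FPKM in ΔrpnR and 25.3 FPKM in MA234.1. A thioesterase-type domain gene (1169421) was at 0.135 FPKM in ΔrpnR and 5.87 FPKM in MA234.1 and was not called. A backbone gene of the polyketide synthase-like type (1080257) was called lower, at 0.0718 FPKM in ΔrpnR and 1.61 FPKM in MA234.1.

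**Figure D4:**
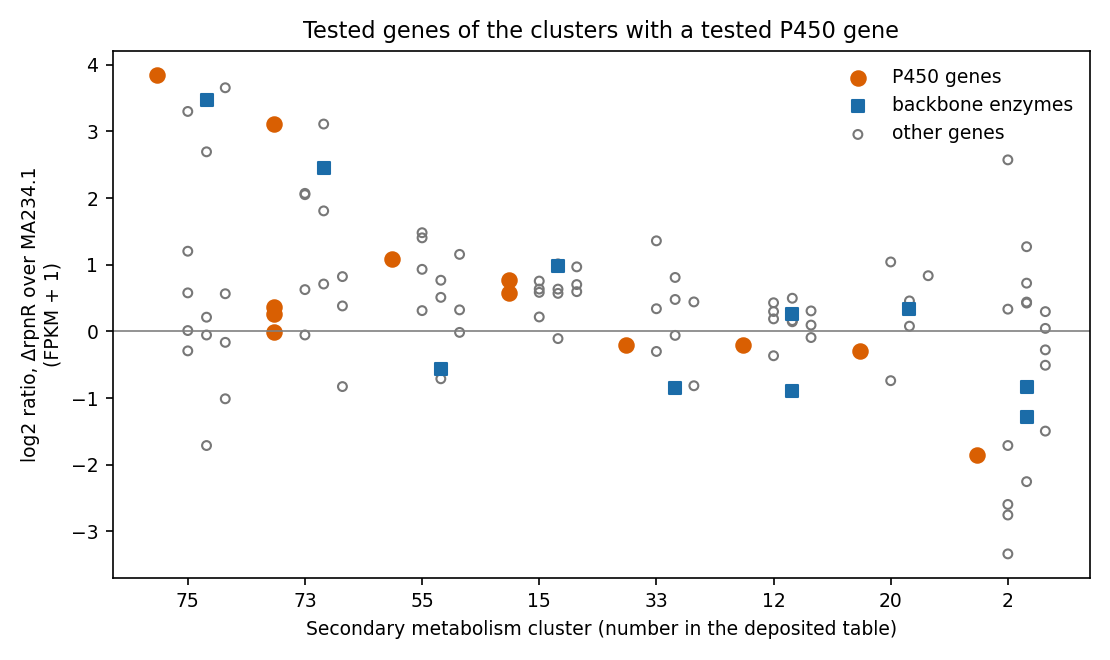
For the 8 clusters with a tested P450 gene (x axis, numbers as in the deposited table), points give the log2 ratio of ΔrpnR over MA234.1 on the FPKM + 1 scale (y axis) of each tested P450 gene (filled circles), backbone enzyme by the table's own type (squares) and other gene (open circles). In clusters 75 and 73 the top P450 gene (3.85 and 3.11) and the backbone enzyme (3.47 and 2.45) both lie high, whereas the other 3 P450 genes of cluster 73 lie at or below 0.37.

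The most abundant cluster members were not called, except 1227492. In cluster 15, 1101614 was at 835 FPKM in ΔrpnR and 490.1 FPKM in MA234.1, a log2 ratio of 0.77 with a q of 0.631 in the authors' deposited table. The second P450 gene of that cluster, 1117235, was at 50.3 FPKM in ΔrpnR and 33.4 FPKM in MA234.1. The cluster was highly expressed in both strains: 9 of its 13 other genes reached 100 FPKM, among them the polyketide synthase 1162446 at 654 FPKM in ΔrpnR and 333 FPKM in MA234.1. Of its 12 other tested genes 11 lay above MA234.1, with a median log2 ratio of 0.63, and none was called. In cluster 12 the P450 gene 1116467 was at 337 FPKM in ΔrpnR and 389.8 FPKM in MA234.1, and none of the 12 other tested genes was called. The peptide synthase of cluster 12 (1116473) was at 416 FPKM in ΔrpnR and 346 FPKM in MA234.1. Its hybrid polyketide and peptide synthase (1170655) lay the other way, at 13.4 FPKM in ΔrpnR and 25.8 FPKM in MA234.1.

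The remaining tested cluster members were lower in level and not called. In cluster 20, 1118448 was at 15.1 FPKM in ΔrpnR and 18.7 FPKM in MA234.1. In cluster 33, 1105533 was at 2.92 FPKM in ΔrpnR and 3.49 FPKM in MA234.1. Over the 12 tested cluster members, the sign of the P450's log2 ratio matched that of the median of the other tested genes of its cluster in 8 cases and differed in 4, where members of 1 cluster share that median.

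In 15 of the 23 clusters every P450 gene was silent. These clusters were not all silent otherwise: 12 of them had other tested genes, 71 in all, of which 8 (11.3%) were called in the authors' deposited table. In the 4 clusters with a called P450 gene, 17 of 54 other tested genes (31.5%) were called. In the 4 clusters with tested but no called P450 genes, 1 of 39 (2.56%) was. The share was 12.04% over all other tested cluster genes and 6.54% over all tested genes, and the differences were not tested. In cluster 27 the P450 gene 1173323 was listed at 0 in both strains while 2 of the 4 other tested genes were called higher. In cluster 66 the P450 gene 1154308 was under 1 FPKM in both strains and 2 of 7 other tested genes were called higher.

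Outside clusters the largest change was the fall of 1154545, at 0.446 FPKM in ΔrpnR and 19.9 FPKM in MA234.1. The level was 44.6-fold lower in ΔrpnR, a log2 ratio of -3.85, with a q of 0.0027 in the authors' deposited table. The fold divides by a value under the limit of 1 FPKM, and with a pseudocount of 0.1 the log2 ratio was -5.19. On the FPKM + 1 scale it ranks 12 among the falls of all tested genes. KEGG names it after CYP7A1, a cholesterol hydroxylase of bile acid synthesis in mammals. The other member with that KEGG name, 1124484, was at 16.0 FPKM in ΔrpnR and 23.3 FPKM in MA234.1 and was not called.

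Called rises outside clusters were those of 1115759 and 1175454. The gene 1115759 was at 50.7 FPKM in ΔrpnR and 13.8 FPKM in MA234.1, 3.68-fold higher, with a log2 ratio of 1.81 and a q of 0.0027 in the authors' deposited table. The gene 1175454, to which KEGG gives no name, was at 18.2 FPKM in ΔrpnR and 7.63 FPKM in MA234.1, with a log2 ratio of 1.15 and a q of 0.0307 in the authors' deposited table. Another 3 members had a q between 0.05 and 0.1 in that table, all with higher values in ΔrpnR. They were 1202457 at 18.04 FPKM in ΔrpnR and 8.45 FPKM in MA234.1, 1157289 at 5.83 FPKM in ΔrpnR and 2.49 FPKM in MA234.1, and 1155930 at 20.6 FPKM in ΔrpnR and 10.6 FPKM in MA234.1. At a q under 0.1, 10 of the 72 tested members (13.9%, 8 higher and 2 lower) were called in the authors' deposited table, against 9.41% of all tested genes (4.83% higher, 4.58% lower).

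Other uncalled members with higher values in ΔrpnR included 1122909, 1183013 and 1123789. The gene 1122909 was at 65.9 FPKM in ΔrpnR and 33.6 FPKM in MA234.1, and 1183013 at 11.8 FPKM in ΔrpnR and 5.69 FPKM in MA234.1. The gene 1123789, named by KEGG after phenylacetate 2-hydroxylase, was at 9.82 FPKM in ΔrpnR and 4.76 FPKM in MA234.1. That enzyme opens the breakdown of phenylacetate in Aspergillus, and the other 3 members with its name were silent. Uncalled members with lower values in ΔrpnR differed less, apart from 1158978. The gene 1145786 was at 11.96 FPKM in ΔrpnR and 19.3 FPKM in MA234.1. The gene 1161152 was at 7.48 FPKM in ΔrpnR and 10.2 FPKM in MA234.1, and 1189049 at 14.0 FPKM in ΔrpnR and 17.4 FPKM in MA234.1. Of the 4 members outside clusters among the 8 most abundant, 1158978 (described with the reductase fusions) differed most. Of the other 3, 1163105 was at 138 FPKM in ΔrpnR and 132 FPKM in MA234.1, 1127636 at 70.3 FPKM in ΔrpnR and 86.5 FPKM in MA234.1, and 1169199 at 74.6 FPKM in ΔrpnR and 60.4 FPKM in MA234.1.

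KEGG attached a product name to 101 of the 139 members, mostly names of animal or bacterial P450 families, which say little about the substrate in a fungus. The largest group carries the name CYP3A, with 38 members, 19 of them silent. Its 19 tested members had log2 ratios between -1.86 and 3.85 with a median of 0.25. It includes 1227492, 1115759 and 1148632, so 2 of its genes were called higher and 1 lower in the authors' deposited table (15.8%, against 6.54% of all tested genes). Of 10 members named after CYP4F2 and CYP4F3, 7 were silent, and 1112854 was the called one of the 3 tested. Of 8 members named after CYP27A, 5 were silent and none reached 10 FPKM. All 4 members named after CYP1A1 were expressed at between 1.03 and 19.7 FPKM, each with the higher value in ΔrpnR, and none was called. The 38 members without a KEGG name were silent in 16 cases, and 2 of the 22 tested ones were called, both higher.

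Members that join a P450 to its own reductase were all expressed. These proteins need no separate reductase. Apart from 1101614 they were 1158978, at 50.1 FPKM in ΔrpnR and 103 FPKM in MA234.1, and 1155563, at 1.29 FPKM in ΔrpnR and 0.595 FPKM in MA234.1. The log2 ratio of 1158978 was -1.02, and it was not called, with a q of 0.425 in the authors' deposited table. Another member, 1106790, has the same KEGG name without the reductase domains and was at 5.30 FPKM in ΔrpnR and 4.18 FPKM in MA234.1. Of 2 members that join a P450 to a haem peroxidase domain, an arrangement known from fatty acid oxygenases of fungi, 1167230 was at 16.4 FPKM in ΔrpnR and 12.4 FPKM in MA234.1 and 1102911 was silent. Some members carry domains unrelated to a P450, and the table does not tell fused genes from merged gene models. An example is 1148703, with methyltransferase and nuclease-type domains, at 59.6 FPKM in ΔrpnR and 33.3 FPKM in MA234.1.

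The predicted membrane anchor is shared by many members. A single predicted transmembrane helix was listed for 75 of 139 members (54.0%), against 7.09% of all genes, and 46 members had none. Of the 75, 40 (53.3%) were silent, and 4 of the 35 tested (11.4%) were called. Of the 46 without a helix, 18 (39.1%) were silent, and 2 of the 28 tested (7.14%) were called. Over all tested genes 6.54% were called, and no test was made between these shares. A secretion signal was predicted for 18 members, of which 5 (27.8%) were silent, against 62 of the 121 others (51.2%).

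Genes with domains found in electron partners of P450 enzymes, and genes of a pathway that includes haem synthesis, were counted in the authors' deposited table. The share called among all tested genes was 6.54%. These lists are by domain or pathway, and a role beside P450 enzymes is not shown for their genes. Of 3 genes with the reductase domains and no P450 domain, the most abundant, 1148233, was at 196 FPKM in ΔrpnR and 187 FPKM in MA234.1, and none was called. Of 27 genes with a cytochrome b5 domain, 24 were tested and 2 (8.33%) were called, both higher (median log2 ratio 0.15). Both, 1222710 and 1153771, also hold the domains of an L-lactate dehydrogenase, and 1222710 was at 21.5 FPKM in ΔrpnR and 8.14 FPKM in MA234.1. None of the 21 tested genes in the KEGG porphyrin pathway was called, and their median log2 ratio was -0.09. That pathway includes haem synthesis but is wider. Its gene 1183270, named after protochlorophyllide reductase, has short-chain dehydrogenase domains and was at 215 FPKM in ΔrpnR and 243 FPKM in MA234.1. The pathway's gene for coproporphyrinogen oxidase (1135072), a late step of haem synthesis, was at 241 FPKM in ΔrpnR and 192 FPKM in MA234.1.

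The P450 genes set aside by the rule belong to KEGG steroid biosynthesis, which includes steps to the membrane sterol ergosterol. They are not all ergosterol enzymes by name. KEGG names some after sterol 14-demethylase or the C-22 sterol desaturase, and others after vitamin D hydroxylases. Of the 11 genes, 3 lie in secondary metabolism clusters. Of the 11 genes, 8 were tested and none was called in the authors' deposited table. The share called was 9.72% among the 72 tested members and 6.54% among all tested genes. With only 8 genes, a count of 0 cannot be set apart from either share, and no test was made. The median log2 ratio of the 8 genes was 0.08. A gene named after the C-22 sterol desaturase (1162192) came nearest, at 11.8 FPKM in ΔrpnR and 25.2 FPKM in MA234.1, with a q of 0.0596 in the authors' deposited table. The other with that name, 1127360, was at 123 FPKM in ΔrpnR and 120 FPKM in MA234.1. Silent genes made up 48.2% of the members and 3 of the 11 steroid genes (27.3%).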

How the data were processed

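RNA of mycelium was sequenced on Illumina machines. Per the submitters' processing notes, the tools included Cuffdiff 2.2.1, Cufflinks, TopHat2, Trimmomatic and CASAVA 1.8.3. What each did, and on which build and annotation, is not stated in the sources used here. The authors deposited 1 expression value per gene and strain, read here as FPKM because Cuffdiff reports that unit, and 1 q-value per gene, used here as deposited. With 1 value per strain, the depth per sample is unknown and no test between libraries could be made. The authors' flag, described per the file headers, was checked against the values and matched its stated thresholds, with 0 exceptions.

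From these values, log2 ratios with a pseudocount of 1 FPKM, counts and medians were computed with Python 3.11.15 and pandas 2.3.3, and the summary code was tested on simulated data. Under 1 FPKM in both strains counts as silent. Named members are the called ones, the 8 most abundant, the 5 uncalled ones with the largest differences in each direction with at least 5 FPKM in 1 strain, those of clusters with a called member or 3 or more members, and the 3 lowest uncalled q-values. Other genes named for their level or domains were chosen after their values were seen. For clusters with a called member, the 3 neighbours with the largest absolute log2 ratio are named. The members and lists were chosen with earlier results of these data known. None of the member IDs (0) matched the reference table of locus tags, so no coordinates or sequences are given.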

Additional observations from a re-analysis of the deposited data

How the results depend on the processing

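Values per library were not used here, so leaving out a replicate was not run. No paired analysis was possible because each strain has 1 value per gene. The number of called P450 genes was 7 at a q under 0.05 and 4 at a q under 0.01, while outside clusters it was 3 and became 6 at a q under 0.1; with the authors' flag, a mean of at least 5 FPKM or the steroid genes included, the total stayed between 6 and 7. The median log2 ratio of the tested members (0.20) was 0.27 with a pseudocount of 0.1, 0.088 with 10, 0.19 when centred on all tested genes, 0.25 at a mean of at least 5 FPKM, 0.038 with untested genes included and 0.17 with the steroid genes. Inside clusters (0.31) it was 0.32, 0.30, 0.48 and 0 with the pseudocount of 0.1, centring, the mean filter and untested genes. Outside clusters (0.18) it was 0.27, 0.17, 0.23 and 0.049 in the same order. No median turned negative, though a new pseudocount cannot reverse a median where most members lie above MA234.1. The medians moved towards 0 with untested genes because these lie near 0 on this scale. The share of silent members (48.2%) was 10.8% at exactly 0, 23.7% under 0.1 FPKM and 70.5% under 10 FPKM, against 5.60%, 9.50% and 46.6% of all genes; the gap between members inside and outside clusters narrowed to 25.8% and 23.1% under 0.1 FPKM and turned at 0 (9.68% and 11.1%) and under 10 FPKM (67.7% and 71.3%). The direction of a single gene cannot change with the pseudocount. All 26 named tested members kept their direction when centred, but centring shifts each log2 ratio by only 0.0156.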

Other observations

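Genes of other oxidising and modifying families were counted by domain, inside and outside clusters. Inside clusters lie 2 of 27 genes with a 2OG-FeII_Oxy domain and 31 of 127 with FAD_binding_3 or FAD_binding_4 domains. Of 143 genes with a methyltransferase domain, 38 lie inside clusters. A role beside P450 enzymes is not shown for the genes of these lists. Of all tested genes, 6.54% were called in the authors' deposited table (3.29% higher, 3.25% lower). No test was made between these shares. Of 19 tested genes with a 2OG-FeII_Oxy dioxygenase domain, 3 were called higher and none lower (15.8%), with a median log2 ratio of 0.38. They were 1179775 of cluster 75 and, outside clusters, 1181821 (18.2 FPKM in ΔrpnR and 7.36 FPKM in MA234.1) and 37794 (19.8 FPKM in ΔrpnR and 7.23 FPKM in MA234.1). Of 81 tested genes with FAD_binding_3 or FAD_binding_4 domains, 4 were called higher and 3 lower (8.64%, median 0.21). Of these, 1125079 and 1210999, both named after phenol 2-monooxygenase by KEGG, were called higher. The level of 1125079 was 15.1 FPKM in ΔrpnR and 5.39 FPKM in MA234.1, and that of 1210999 was 13.6 FPKM in ΔrpnR and 4.26 FPKM in MA234.1. Of 102 tested genes with a methyltransferase domain, 7 were called higher and 2 lower (8.82%, median -0.12). These called genes include the synthases 1188722, 1168194 and 1159236, which also count among the backbone enzymes below.

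Genes with a domain typical of backbone enzymes (ketoacyl-synt, Condensation, Terpene_synth, Terpene_synth_C or Trp_DMAT), among them the synthases whose products cluster P450 enzymes modify, were silent in 39 of 81 cases (48.1%). This list is by domain and can hold genes without a backbone type in the deposited table. Of the 41 tested, 3 were called higher and 4 lower in the authors' deposited table (17.1%, against 6.54% of all tested genes and 12.04% of cluster genes other than the P450 members). The falls included a peptide synthase (1186498) at 0.425 FPKM in ΔrpnR and 8.74 FPKM in MA234.1, and a terpene synthase domain gene (1130084) at 0.859 FPKM in ΔrpnR and 7.85 FPKM in MA234.1. The clusters of these 2 genes, 49 and 79, hold no P450 gene by the rule used here. The other called falls lie in clusters that do hold P450 genes. They were 1080257 of cluster 2, at 0.0718 FPKM in ΔrpnR and 1.61 FPKM in MA234.1, and 1159236 of cluster 46, at 1.25 FPKM in ΔrpnR and 3.81 FPKM in MA234.1.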
